A study of Mus musculus with 4 samples.

Results

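The genes described here are 10 genes of glucose uptake and glycolysis, chosen by name: the glucose transporter Slc2a1 and the enzymes Hk2, Gpi1, Aldoa, Tpi1, Pgk1, Pgam1, Eno1, Pkm and Ldha. All 10 had a row among the 16449 genes of the count table. They were measured by Nanopore long-read RNA sequencing of micro-dissected dorsal and medial palliums, the wall of the embryonic forebrain that gives rise to neocortex and hippocampus, at E11.5 in the mouse. The 4 libraries comprised 2 labelled WT and 2 labelled Tut1 knockout, called KO-labelled here. The product of Tut1 is a terminal uridylyltransferase whose substrate is the spliceosomal U6 snRNA. The knockout is Tut1 f/f;Emx1-Cre, in which Cre made from the Emx1 locus, active in dorsal forebrain progenitors and their progeny, removes exon 2 of Tut1. Cells in the dissected tissue that do not derive from these progenitors, such as those of vessels, blood and meninges, therefore keep the gene. The study lists the floxed allele for all 4 libraries, while the sample labels call the controls only WT. How many embryos went into a library is not stated, so the p-values below measure the spread between these libraries, which may be technical.

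The libraries held 361003 and 392579 counts in WT against 397150 and 305642 in the KO-labelled libraries, and 5878 genes were abundant enough to be tested. WT replicate 1 had 64 counts of Xist and 0 of 4 Y-linked genes, whereas the other libraries had 0 counts of Xist and 41 to 78 of the Y-linked genes, so that the female library was in the WT group. Tut1, examined as a check of the labels, had 6 and 11 counts in WT against 29 and 25 in the KO-labelled libraries (log2 fold change 1.71 ± 0.40 SE, edgeR, adjusted p = 0.0113). The whole-gene count was thus higher in the KO-labelled libraries. Its log2 fold change was 1.39 without WT replicate 1 and 2.13 without WT replicate 2. Without KO-labelled replicate 1 it was 1.80, and without KO-labelled replicate 2 it was 1.63. After thinning all libraries to the size of the smallest, Tut1 did not pass (edgeR, adjusted p = 0.0697). A count over the whole gene does not show whether exon 2 was present, so this check cannot decide whether the labels are right. Every direction below follows the labels and not a verified genotype.

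Glycolysis breaks glucose down to pyruvate in the cytosol. Glucose enters the cell through transporters such as SLC2A1 and is trapped by hexokinase, and the 6-carbon sugar phosphate is split by aldolase into 3-carbon units from which ATP and pyruvate are made. Lactate dehydrogenase converts pyruvate to lactate and back. Proliferating progenitors of the early neuroepithelium are known for high glycolytic activity, and the pathway is induced by HIF1A and MYC in many tissues.

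In none of these genes did the difference between KO-labelled and WT libraries pass an adjusted p of 0.05. The edgeR quasi-likelihood test with Benjamini-Hochberg adjustment, which is behind every adjusted p given here unless DESeq2 is named, was run on 9 of the 10 genes, because Pgam1 lay below the filter on low counts. It called 0 of these 9, against 2.06% of all 5878 tested genes, of which 1.4% were called higher and 0.663% lower. At an unadjusted p below 0.05 there was 1 of 9, Eno1, against 14.2% of all tested genes, and DESeq2 and limma-voom also called 0. The log2 fold changes (KO-labelled libraries over WT) ranged from -0.58 for Eno1 to 0.29 for Pkm, with 5 below 0 and 4 above, and their median was -0.01, beside -0.01 over all tested genes. The levels in CPM (counts scaled to the size of the library) did not overlap between the groups for 5 of the 9. Gpi1, Pgk1, Eno1 and Ldha lay lower in both KO-labelled libraries, as did 20.8% of all tested genes, and Pkm lay higher in both, as did 22.1%.

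**Figure D1:**
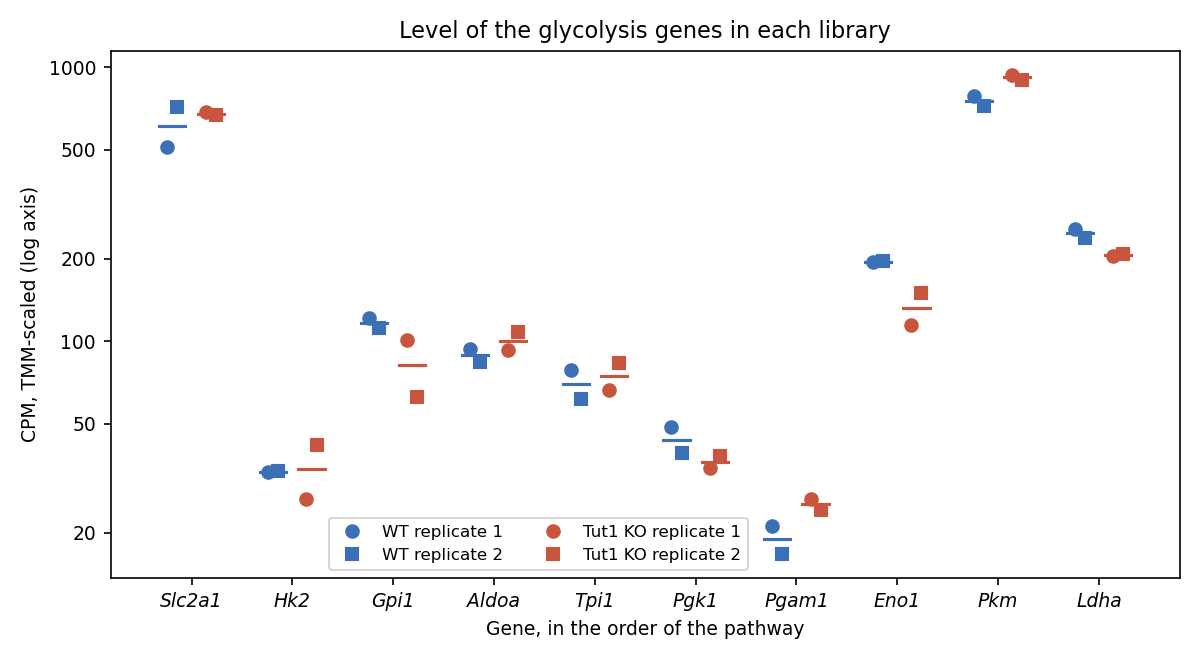
Level of each of the 10 genes in each library in CPM on a log axis, with genes in the order of the pathway, circles for replicate 1, squares for replicate 2, blue for WT, red for the libraries labelled Tut1 KO, and a line at each group mean. The groups overlap for Slc2a1, Hk2, Aldoa and Tpi1 and lie apart for the other 6 genes, with red above blue for Pgam1 and Pkm.

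The genes spanned a wide range of levels. Divided by the length of the longest coding transcript, the WT level was 309.4 ± 18.6 CPM per kb for Pkm (mean ± SD, n = 2), 188 ± 43.5 for Slc2a1 and 136 ± 7.81 for Ldha. Eno1 followed at 96.0 ± 0.58 CPM per kb, Aldoa at 57.4 ± 4.61, Tpi1 at 43.6 ± 7.62 and Gpi1 at 40.4 ± 2.31. Lowest were Pgk1 at 24.0 ± 3.63, Pgam1 at 10.7 ± 1.77 and Hk2 at 6.06 ± 0.03 CPM per kb. By this measure Pkm, the glucose transporter and Ldha were at the top, and hexokinase 2 at the bottom. Part of the order came from the division by length. In CPM not divided by length, Pgam1 was lowest in WT at 19.0, below Hk2 at 33.4. Gpi1, at 116.4 CPM, then lay above Aldoa at 88.8 and Tpi1 at 70.1. Whether counts rise with transcript length in these long-read libraries was not tested. Over all 4 libraries, neighbours in the order per kb were separate except Eno1 and Aldoa, Tpi1 and Gpi1, and Gpi1 and Pgk1, whose ranges overlapped. The levels of Pgk1 and Eno1 leave out the reads counted on their near-identical copies, which are described below. With the copies added, Pgk1 stood at 196.9 and 229.0 CPM in the WT libraries, against a mean of 43.8 CPM on its own row. Eno1 stood at 418.0 and 446.9 CPM, against a mean of 194.7 CPM. The places of both genes in the order therefore depend on the copies.

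Slc2a1 (ENSMUSG00000028645, chromosome 4, 119108711 to 119137983, GRCm38) encodes GLUT1, the transporter through which glucose crosses into neuroepithelial cells and the endothelium of brain vessels. It had 169 and 255 counts in WT against 258 and 192 in the KO-labelled libraries, or 612.1 ± 141.7 and 676.2 ± 13.3 CPM (mean ± SD, n = 2 each). Both KO-labelled libraries lay between the WT libraries, and the log2 fold change was 0.14 ± 0.16 (edgeR, adjusted p = 0.786). The 95% interval of the fold change ran from 0.879 to 1.38. Its sign rested on WT replicate 1, the lower of the controls: without it the log2 fold change was -0.08, and without WT replicate 2 it was 0.39.

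Hk2 (ENSMUSG00000000628, chromosome 6, 82725025 to 82774454) encodes hexokinase 2, which phosphorylates glucose in the first step of its use in the cell. With 11 and 12 counts in WT against 10 and 12 in the KO-labelled libraries it was among the genes with the fewest counts, and the groups overlapped. The log2 fold change was -0.01 ± 0.45 (edgeR, adjusted p = 0.998), and its interval, from 0.528-fold to 1.88-fold, covers changes that were not detectable at this depth. Gpi1 (ENSMUSG00000036427, chromosome 7, 34201330 to 34230336) encodes the isomerase that turns glucose-6-phosphate into fructose-6-phosphate. Counts of 40 and 40 in WT stood against 38 and 18 in the KO-labelled libraries, where replicate 2 stood well below the other libraries. Mean levels were 116.4 ± 6.67 CPM in WT and 81.8 ± 27.2 CPM in the KO-labelled libraries, and the log2 fold change was -0.47 ± 0.29 (edgeR, adjusted p = 0.508). It was -0.20 without KO-labelled replicate 2 and -0.89 without KO-labelled replicate 1.

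Aldolase splits fructose-1,6-bisphosphate into 3-carbon sugar phosphates. Aldoa (ENSMUSG00000030695, chromosome 7, 126795234 to 126800751), its ubiquitous isozyme, had 31 and 30 counts in WT against 35 and 31 in the KO-labelled libraries, and the CPM of the groups overlapped. Levels were 88.8 ± 7.15 CPM in WT and 100.3 ± 10.4 CPM in the KO-labelled libraries (log2 fold change 0.17 ± 0.29, edgeR, adjusted p = 0.871). The Aldoa value was 0.07 without WT replicate 2, 0.07 without KO-labelled replicate 2 and 0.28 without KO-labelled replicate 1. Aldoc, the isozyme known from brain, had 38 and 35 counts in WT against 16 and 19 in the KO-labelled libraries. The Aldoc groups did not overlap, but the log2 fold change of -0.998 ± 0.32 did not pass (edgeR, adjusted p = 0.0996). Tpi1 (ENSMUSG00000023456, chromosome 6, 124810586 to 124814296) encodes the isomerase that interconverts the products of aldolase. It had 26 and 22 counts in WT against 25 and 24 in the KO-labelled libraries, again overlapping in CPM (log2 fold change 0.08 ± 0.33, edgeR, adjusted p = 0.948). That sign turned to -0.10 without WT replicate 2 and to -0.07 without KO-labelled replicate 2.

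Gapdh, which oxidizes glyceraldehyde-3-phosphate in the step between Tpi1 and Pgk1, is not among the 10 genes but had the most counts of the tested genes of the pathway and passed the test. It had 1543 and 1700 counts in WT against 1284 and 1024 in the KO-labelled libraries, or 4711 ± 52.7 and 3484 ± 102.1 CPM. The log2 fold change was -0.44 ± 0.10 (edgeR, adjusted p = 0.00648), and both KO-labelled libraries lay below both WT libraries. Rows of 37 near-identical copies of Gapdh, nearly all processed pseudogenes, held between 71.2% and 73.3% of the counts of the family in each library, and this share overlapped between the groups. Of these copies 14 were tested, with log2 fold changes from -0.50 to -0.21 and 1 called lower. With the copies added, Gapdh had 5608 and 5907 counts in WT against 4593 and 3834 in the KO-labelled libraries (log2 fold change -0.39 ± 0.08, edgeR, adjusted p = 0.00205). The call for the Gapdh row alone did not hold under DESeq2 (adjusted p = 0.129) or in edgeR without WT replicate 2 (adjusted p = 0.0555), without KO-labelled replicate 1 (adjusted p = 0.200) or without KO-labelled replicate 2 (adjusted p = 0.0735), and held without WT replicate 1, the female library (adjusted p = 0.0487).

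Copies also bore on the members. For 4 of the 10 genes, Pgk1, Eno1, Pgam1 and Ldha, other rows of the table aligned to at least 50% of the copy at 90% identity or more, and for the other 6 none did. With a looser minimum of 80% identity over 30% of the row, 42 rows aligned to Gpi1, none of which met the minimum of 90%. With their counts added the sum was at -0.12 on the log2 scale (edgeR, adjusted p = 0.667). Whether these rows are copies of Gpi1 was not tested, so the sum does not stand for Gpi1 itself. For Pgam1 and Ldha the copies at 90% identity were 1 row each with at most 2 counts in a library. Pgk1 (ENSMUSG00000062070, chromosome X, 106187100 to 106203699) encodes phosphoglycerate kinase 1, which makes the first ATP of the pathway. Its copies Gm5537 (chromosome 3, 58102996 to 58104247) and Pgk1-rs7 (chromosome 12, 10898986 to 10900240) matched the Pgk1 transcript at 1252 of 1252 and 1255 of 1255 bases and span nearly the whole coding region, so that a read confined to it could not tell the 3 genes apart. The stretch from coding base 11 to 100, counted from 1 at the A of the start codon, is shown for all 3 (GENCODE sequences, GRCm38), and is the same letter for letter.
Pgk1: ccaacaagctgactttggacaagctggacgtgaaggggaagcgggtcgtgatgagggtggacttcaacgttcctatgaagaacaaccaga
Gm5537: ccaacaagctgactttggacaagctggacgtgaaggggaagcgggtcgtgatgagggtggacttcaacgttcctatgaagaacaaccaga
Pgk1-rs7: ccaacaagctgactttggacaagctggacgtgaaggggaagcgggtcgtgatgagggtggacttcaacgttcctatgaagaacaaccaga

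The row of Pgk1 had 16 and 14 counts in WT against 13 and 11 in the KO-labelled libraries. In CPM this was 48.5 and 39.1 in WT and 34.5 and 38.2 in the KO-labelled libraries, which lay just below the WT libraries (log2 fold change -0.27 ± 0.41, edgeR, adjusted p = 0.852). Leaving out WT replicate 1 moved this value to -0.12, and leaving out WT replicate 2 moved it to -0.43. Most counts of the family were on the copies. Gm5537 had 33 and 40 counts in WT against 18 and 32 in the KO-labelled libraries, and Pgk1-rs7 had 16 and 28 against 7 and 11. The copies held 75.4% of the counts of the family in WT replicate 1 (95% exact binomial interval 63.1 to 85.2) and 82.9% in WT replicate 2 (73.0 to 90.3). They held 65.8% in KO-labelled replicate 1 (48.6 to 80.4) and 79.6% in KO-labelled replicate 2 (66.5 to 89.4), which overlapped the WT range. These intervals cover counting error only. Added together, the 3 rows had 65 and 82 counts in WT against 38 and 54 in the KO-labelled libraries, so that both KO-labelled libraries lay below both WT libraries. The log2 fold change of the sum was -0.60 ± 0.26, which passed an unadjusted threshold of 0.05 but not the adjustment (edgeR, adjusted p = 0.248). Without KO-labelled replicate 1, which had the lowest sum, it was -0.19, and without KO-labelled replicate 2 it was -1.08 (edgeR, adjusted p = 0.103).

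**Figure D2:**
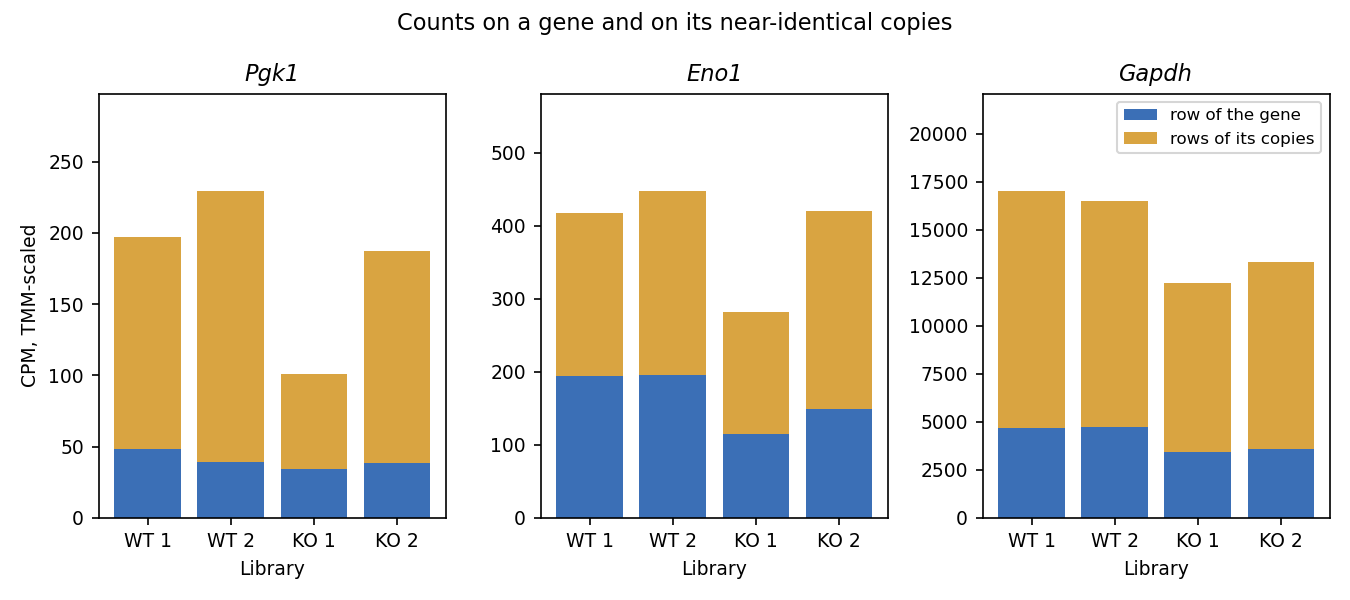
CPM on the row of each gene (blue) and on the rows of its near-identical copies (yellow), stacked, for Pgk1, Eno1 and Gapdh in each library, with a vertical scale of its own in each panel starting at 0. Copies held from 53.6% to 82.9% of each stacked bar, and for Pgk1 and Gapdh the bars of both KO libraries end below those of both WT libraries.

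Eno1 (ENSMUSG00000063524, chromosome 4, 150236721 to 150248879) encodes alpha-enolase, which forms phosphoenolpyruvate. WT counts of 64 and 70 stood against 43 in each of the KO-labelled libraries, or 194.7 ± 1.17 and 131.8 ± 24.8 CPM. Both KO-labelled libraries lay below the closely matched WT libraries, and the log2 fold change was -0.58 ± 0.25, with a 95% interval from -1.07 to -0.08. This passed an unadjusted threshold of 0.05 and not the adjustment over all tested genes (edgeR, adjusted p = 0.245). Without KO-labelled replicate 1 the log2 fold change was -0.38, and without KO-labelled replicate 2 it was -0.77.

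The processed pseudogene Gm4735 (chromosome 2, 80837141 to 80838442) covers the whole coding region of Eno1 and differs from it at 5 of 1302 bases. Counted from 1 at the A of the start codon, with the base of Eno1 first, these are T726C, T816G, A1056G, T1224C and C1233T. Each lies at the third position of a codon and leaves the encoded amino acid the same. The stretch from coding base 707 to 826, with the differing bases in capitals, holds 2 of the 5 differences.
Eno1: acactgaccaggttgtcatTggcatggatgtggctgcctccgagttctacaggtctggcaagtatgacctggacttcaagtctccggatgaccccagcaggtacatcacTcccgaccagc
Gm4735: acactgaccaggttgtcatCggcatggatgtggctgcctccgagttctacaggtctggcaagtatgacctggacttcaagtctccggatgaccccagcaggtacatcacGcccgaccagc

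Gm4735 had 60 and 76 counts in WT against 48 and 56 in the KO-labelled libraries, about as many as Eno1 itself. A second copy, Eno1b, annotated as protein coding, had 14 and 14 counts in WT against 15 and 22 in the KO-labelled libraries. The 2 copies held 53.6% of the counts of the family in WT replicate 1 (95% exact binomial interval 44.9 to 62.1), 56.3% in WT replicate 2 (48.2 to 64.1), 59.4% in KO-labelled replicate 1 (49.5 to 68.9) and 64.5% in KO-labelled replicate 2 (55.2 to 73.0). The share was higher in both KO-labelled libraries, by less than the width of these intervals. Summed, the family had 138 and 160 counts in WT against 106 and 121 in the KO-labelled libraries. The summed CPM of the groups overlapped, since KO-labelled replicate 2 reached the level of WT replicate 1, and the log2 fold change shrank to -0.32 ± 0.19 (edgeR, adjusted p = 0.479). It was -0.04 without KO-labelled replicate 1 and -0.62 without KO-labelled replicate 2 (edgeR, adjusted p = 0.221).

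Pgam1 (ENSMUSG00000011752, chromosome 19, 41911923 to 41918660), the phosphoglycerate mutase between Pgk1 and Eno1, was too scarce to be tested. It had 7 and 6 counts in WT against 10 and 7 in the KO-labelled libraries, or 21.2 and 16.8 CPM against 26.6 and 24.3 CPM. In CPM both KO-labelled libraries lay above both WT libraries, while the count of KO-labelled replicate 2 equalled that of WT replicate 1. A fit without a filter gave 0.43 ± 0.56 on the log2 scale (edgeR, adjusted p = 0.862).

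Pkm (ENSMUSG00000032294, chromosome 9, 59656368 to 59679375) encodes pyruvate kinase, whose M1 and M2 forms arise from mutually exclusive exons. These gene counts do not separate the forms, and isoforms were not analysed here. Pkm had 259 and 258 counts in WT against 353 and 258 in the KO-labelled libraries, or 784.5 and 720.6 CPM against 938.1 and 896.1 CPM. The groups did not overlap, and the log2 fold change of 0.29 ± 0.14 narrowly missed even an unadjusted threshold of 0.05 (edgeR, adjusted p = 0.356). It was past that unadjusted threshold with limma-voom, total counts, the length trend removed and the bias-adjusted test, with adjusted p from 0.213 to 0.345. It had the most counts of the 10 genes, and its 95% interval ran from 0.999-fold to 1.49-fold. The proteins known to govern the choice of the Pkm exon were all tested, and 0 of 4 passed in edgeR, DESeq2 or limma-voom, with 2 at an unadjusted p below 0.05, beside 2.06% of all tested genes that passed in edgeR and 14.2% below the unadjusted threshold. Ptbp1, a repressor of the M1 exon, had 150 and 198 counts in WT against 133 and 87 in the KO-labelled libraries (log2 fold change -0.61 ± 0.18, edgeR, adjusted p = 0.0580). Hnrnpa2b1 was at -0.27 ± 0.10 (edgeR, adjusted p = 0.152) and Hnrnpa1 at -0.09 ± 0.18 (edgeR, adjusted p = 0.893).

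**Figure D3:**
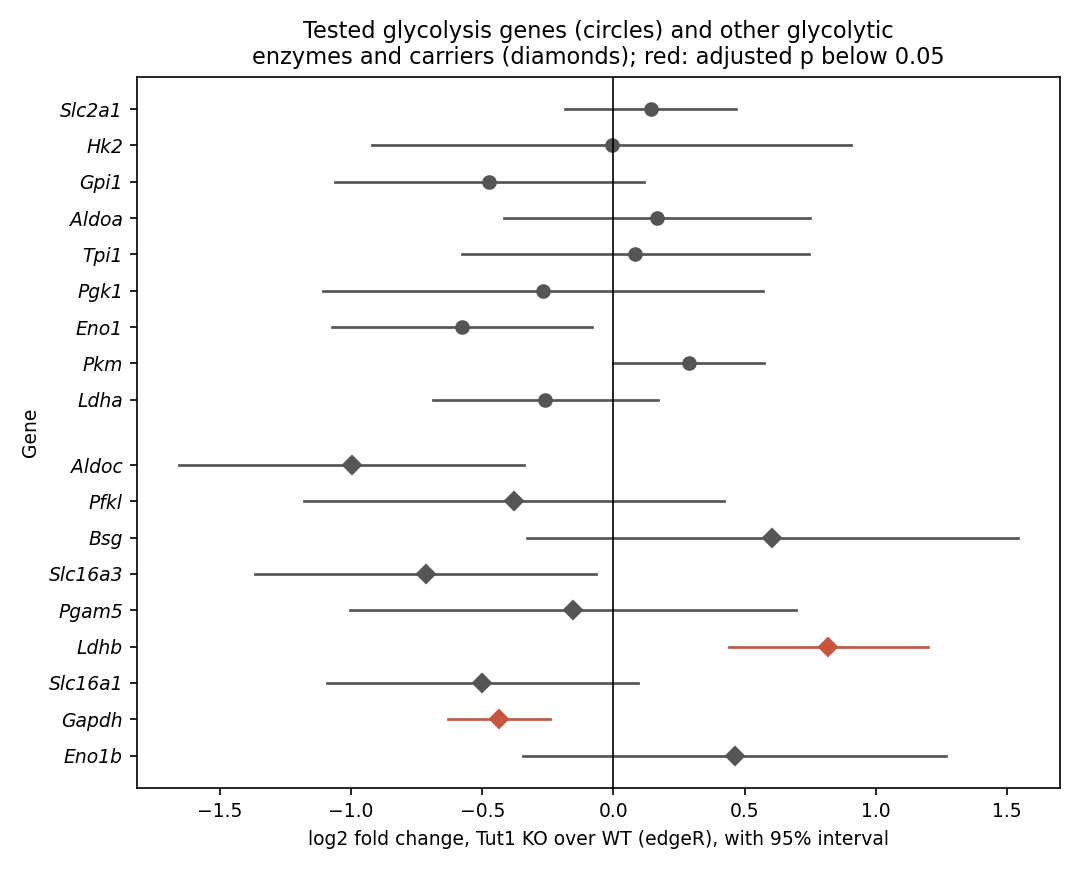
Log2 fold change of the libraries labelled Tut1 KO over WT with its 95% interval for the 9 tested members (circles) and 9 tested genes listed as other glycolytic enzymes, isozymes and carriers (diamonds), with genes past an adjusted p of 0.05 in red. Among the diamonds, Pgam5 is not a glycolytic enzyme. Only Gapdh, at -0.44, and Ldhb, at 0.82, are red, and among the members only the interval of Eno1 lies wholly to one side of 0.

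Lactate dehydrogenase is a tetramer of A and B chains. Ldha (ENSMUSG00000063229, chromosome 7, 46841475 to 46855627), which encodes the A chain that prevails in highly glycolytic tissues, had 85 and 85 counts in WT against 77 and 60 in the KO-labelled libraries. Levels were 257.5 and 237.4 CPM in WT and 204.6 and 208.4 CPM in the KO-labelled libraries, so that the groups did not overlap, but the log2 fold change of -0.26 ± 0.21 did not pass (edgeR, adjusted p = 0.651). Ldhb, which encodes the B chain and is not among the 10 genes, rose. It had 90 and 82 counts in WT against 175 and 120 in the KO-labelled libraries, or 250.8 ± 30.8 and 440.9 ± 34.1 CPM, and the log2 fold change was 0.82 ± 0.19 (edgeR, adjusted p = 0.00926). This call did not hold under DESeq2 (adjusted p = 0.201) or in edgeR without WT replicate 2 (adjusted p = 0.181), without KO-labelled replicate 1 (adjusted p = 0.272) or without KO-labelled replicate 2 (adjusted p = 0.0840), and held without WT replicate 1 (adjusted p = 0.0343).

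Ldhb made up 51.4% of the lactate dehydrogenase counts (Ldha and Ldhb) in WT replicate 1 (95% exact binomial interval 43.8 to 59.0) and 49.1% in WT replicate 2 (41.3 to 56.9). It made up 69.4% in KO-labelled replicate 1 (63.4 to 75.1) and 66.7% in KO-labelled replicate 2 (59.3 to 73.5). These shares are of counts, not corrected for length. The balance of A and B chain counts was near even in WT and leaned to the B chain in both KO-labelled libraries, at 50.3 ± 1.65% and 68.1 ± 1.96% (mean ± SD, n = 2 each). In aldolase, Aldoc held 55.1% and 53.8% of the counts of Aldoa and Aldoc in WT and 31.4% and 38.0% in the KO-labelled libraries, again with no overlap. These shares were chosen after the values were seen and are given without a test; an exact permutation test of 2 against 2 libraries cannot go below p = 0.333.

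**Figure D4:**
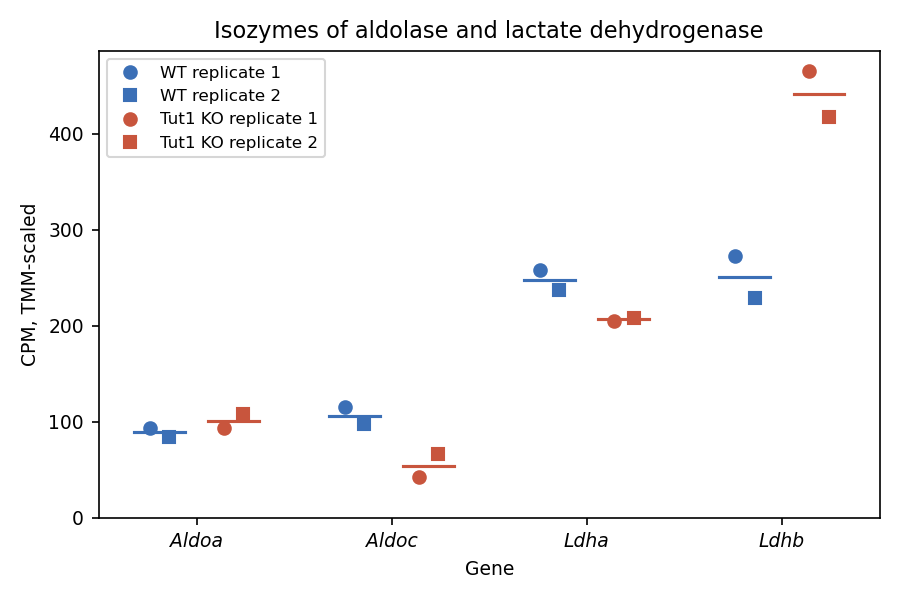
CPM of the aldolase isozymes Aldoa and Aldoc and the lactate dehydrogenase isozymes Ldha and Ldhb in each library, with circles for replicate 1, squares for replicate 2, blue for WT, red for the libraries labelled Tut1 KO and a line at each group mean. Ldhb lay at 250.8 CPM on average in WT and 440.9 CPM in the KO libraries, while the groups of Aldoa overlapped.

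As a sum, the 10 genes held a small part of each library. Their share of all counts was 0.196% in WT replicate 1 (95% exact binomial interval 0.182 to 0.211), 0.202% in WT replicate 2 (0.188 to 0.216), 0.217% in KO-labelled replicate 1 (0.203 to 0.232) and 0.215% in KO-labelled replicate 2 (0.199 to 0.232). The KO-labelled libraries lay higher, with intervals that overlapped those of WT. Pkm and Slc2a1 supplied most of these counts. With the counts of near-identical copies added the shares came to 0.231% and 0.242% in WT against 0.240% and 0.255% in the KO-labelled libraries, and the groups overlapped. Of protein-coding counts the share was 0.240% and 0.249% in WT and 0.262% and 0.263% in the KO-labelled libraries, which did not overlap. The intervals cover counting error only, and the summed share was not tested. In bulk tissue, fewer cells of a type and less RNA per cell cannot be told apart.

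Genes around the pathway gave 2 calls, both among the other glycolytic enzymes, isozymes and carriers. Of 9 tested there, Ldhb was called higher and Gapdh lower, against 1.4% and 0.663% of all tested genes, with 4 at an unadjusted p below 0.05, against 14.2% of all tested genes, and a median log2 fold change of -0.38. Limma-voom called 2 of them and DESeq2 called 0. The 9 include Pgam5 (-0.15 on the log2 scale), a mitochondrial protein phosphatase that is not a glycolytic enzyme. They also include Eno1b (0.46), counted above as a copy of Eno1, and neither was below an unadjusted p of 0.05. The lactate exporter Slc16a3 had 29 and 36 counts in WT against 20 and 18 in the KO-labelled libraries, which did not pass (log2 fold change -0.72 ± 0.32, edgeR, adjusted p = 0.286). Among 6 tested regulators of glycolysis 0 passed, with 0 at an unadjusted p below 0.05, 0 in DESeq2 and 0 in limma-voom. Those with the smallest p were Mycn at -0.72 ± 0.46 (edgeR, adjusted p = 0.527), the pyruvate dehydrogenase kinase Pdk1 at -0.66 ± 0.44 (edgeR, adjusted p = 0.545) and Myc at -0.27 ± 0.36 (edgeR, adjusted p = 0.818) on the log2 scale.

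Genes that low oxygen induces outside glycolysis were looked at as a list of their own. Of 6 tested 0 passed, with 1 at an unadjusted p below 0.05, 0 in DESeq2 and 0 in limma-voom, and a median log2 fold change of -0.30. Of all tested genes 2.06% passed and 14.2% were below the unadjusted threshold, so that 1 of 6 lay near that share. Fam162a, a mitochondrial protein, had 55 and 65 counts in WT against 36 and 38 in the KO-labelled libraries (log2 fold change -0.63 ± 0.26, edgeR, adjusted p = 0.227). The cytokine Mif was at -0.66 ± 0.41 (edgeR, adjusted p = 0.512) and the histone demethylase Kdm3a at -0.47 ± 0.34 (edgeR, adjusted p = 0.592). The collagen prolyl hydroxylase P4ha1 lay higher in both KO-labelled libraries, at 0.48 ± 0.35 (edgeR, adjusted p = 0.597), and Bnip3l, a mitophagy receptor, overlapped between the groups at 0.15 ± 0.42. Of 19 tested genes of pyruvate entry and the citric acid cycle 0 passed, with 2 at an unadjusted p below 0.05, 0 in DESeq2 and 0 in limma-voom, a share below the 14.2% of all tested genes. Their log2 fold changes were above 0 for 12 and below 0 for 7, with a median of 0.18. The mitochondrial pyruvate carrier Mpc1 had 11 and 12 counts in WT against 16 and 28 in the KO-labelled libraries (log2 fold change 1.00 ± 0.41, edgeR, adjusted p = 0.235). Sdhd, a membrane subunit of succinate dehydrogenase, had 13 and 16 against 10 and 2 counts (log2 fold change -1.21 ± 0.52, edgeR, adjusted p = 0.248).

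The side branches of glycolysis gave 0 calls, beside 2.06% of all tested genes that passed and 14.2% below an unadjusted p of 0.05. In the pentose phosphate pathway, which makes NADPH and ribose, 3 genes were tested and 0 passed, with 0 at an unadjusted p below 0.05, 0 in DESeq2 and 0 in limma-voom. Taldo1 was at 0.45 ± 0.37 (edgeR, adjusted p = 0.656), Tkt at -0.31 ± 0.37 (edgeR, adjusted p = 0.799) and G6pdx at -0.14 ± 0.46 (edgeR, adjusted p = 0.930) on the log2 scale. In the serine, glycerol and gluconeogenic branches 5 were tested and 0 passed, with 0 at an unadjusted p below 0.05, 0 in DESeq2 and 0 in limma-voom. Gpd2 was at -0.62 ± 0.33 (edgeR, adjusted p = 0.396), Psat1 of serine synthesis at -0.49 ± 0.31 (edgeR, adjusted p = 0.534) and Shmt2 at -0.35 ± 0.33 (edgeR, adjusted p = 0.710).

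**Figure D5:**
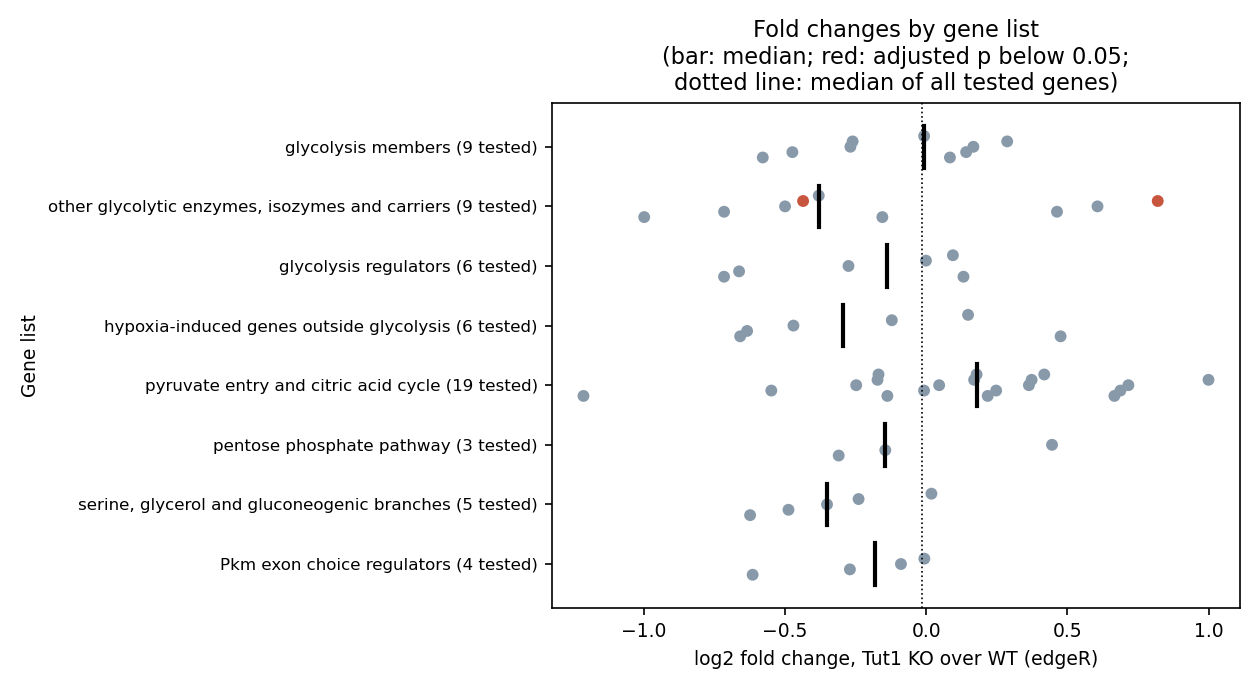
Log2 fold change of each tested gene (points) in the 8 lists, with a bar at the median of each list, a dotted line at the median of all 5878 tested genes and genes past an adjusted p of 0.05 in red. The median of the glycolysis members, -0.01, lies on the dotted line, and 2 points in all, both among the other glycolytic enzymes, are red.

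Markers of cell types were called in all lists except endothelium, and their counts stand beside the 1.4% of all tested genes called higher and the 0.663% called lower. The summed level of 10 neural stem and progenitor markers was 2423 and 2234 CPM in WT and 1507 and 1653 CPM in the KO-labelled libraries, with Lhx2 called lower of 9 tested. Proliferation markers summed to 4413 and 3746 CPM in WT and 2804 and 3091 CPM in the KO-labelled libraries, with Mki67 and Cenpf called lower of 10 tested. Markers of intermediate progenitors and neurons summed to 1299 and 1237 CPM against 2044 and 1810 CPM, with Mapt and Dcx called higher of 7 tested. All 10 progenitor markers of the labelled tissue were detected. Most of the difference in their sum was that of Lhx2, at 1054 and 760 CPM in WT and 282 and 368 CPM in the KO-labelled libraries, while Nes, Pax6, Vim, Hes1 and Sox2 overlapped between the groups and Fabp7 lay higher in both KO-labelled libraries. Emx2, at 145 and 173 CPM in WT and 61.1 and 108 CPM in the KO-labelled libraries, also lay lower in both without passing (-0.96 ± 0.28 on the log2 scale, edgeR, adjusted p = 0.0639), as did Sox9 (-0.30). Of the 9 tested progenitor markers 7 were below 0, with a median of -0.30. Markers of microglia and macrophages summed to 96.9 and 106 CPM in WT and 409 and 337 CPM in the KO-labelled libraries. Of the 8 listed, 4 were tested, and these, Cx3cr1, Aif1, Csf1r and Tyrobp, were called higher. Cx3cr1 (6 and 6 counts in WT), Aif1 (9 and 6) and Tyrobp (1 and 4) passed the low-count filter only through the KO-labelled libraries. Genes that pass in this way could hardly be found lower, so these calls say little about the list. Mesenchyme markers summed to 103 and 268 CPM against 476 and 320 CPM, with Col1a2 called higher of 4 tested. Col1a2 (3 and 7 counts in WT against 27 and 16) likewise passed the filter only through the KO-labelled libraries. Endothelial markers summed to 109 and 123 CPM against 197 and 181 CPM, with 0 of 2 tested called and 0 at an unadjusted p below 0.05, 0 in DESeq2 and 0 in limma-voom. Erythroid markers summed to between 1384 and 1869 CPM in WT and between 1521 and 2309 CPM in the KO-labelled libraries, with Hbb-bh1 called lower of 6 tested. Of these 6, 4 had log2 fold changes above 0 and 2 below, with a median of 0.29, and Hba-x lay higher in both KO-labelled libraries (1.07 ± 0.31 on the log2 scale, edgeR, adjusted p = 0.0563). DESeq2 called 1 progenitor marker and 1 neuron marker and 0 in the other marker lists. The part of these shifts in the values of Gapdh, Ldhb and the 10 genes was not tested.

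The promoters of the 10 genes were searched for the letters ACGTG on both strands, the core of a common form of the hypoxia response element, in RefSeq windows from 250 bases before to 50 after each start (GRCm38.p6). All 10 had a window, and 7 of them held the letters in at least 1 window, against 21.8% of all 27025 genes. Several genes have more than 1 window, and by window the share was 8 of 16 (50%) against 19.6% of 32851. The genes and windows compared with were not matched for base composition or expression, so the difference is not a measure of enrichment. No match was found for Gpi1, Tpi1 and Eno1. Among the tested genes, those with the letters had log2 fold changes from -0.27 for Pgk1 to 0.29 for Pkm, and those without had -0.58 for Eno1, -0.47 for Gpi1 and 0.08 for Tpi1. The E-box CACGTG, a palindrome that counts as ACGTG on each strand, was found only for Ldha among the members, against 8.09% of all genes. Ldha is shown because its window held the most matches, 5 of ACGTG, of which the 2 E-boxes made 4. The 250 bases before its start, at chr7:46845554-46845803 on the plus strand, overlap no annotated exon and are given with the matches in capitals. A match is a run of letters and not a shown site.
Ldha: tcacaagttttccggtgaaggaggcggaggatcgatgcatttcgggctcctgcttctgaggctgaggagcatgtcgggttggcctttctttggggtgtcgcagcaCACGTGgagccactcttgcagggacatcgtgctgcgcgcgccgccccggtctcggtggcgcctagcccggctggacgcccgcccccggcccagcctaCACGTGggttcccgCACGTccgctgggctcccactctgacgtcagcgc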

How the data were processed

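The deposited table held raw counts per gene without normalization, derived by the authors from poly(A)-enriched RNA read on the Nanopore platform (GRCm38, per the labels). For their splicing analysis the authors aligned reads with minimap2 to the Ensembl transcriptome. How gene counts were made, how reads matching several genes were placed and whether strand was used are not given in the sources used here. Overlapping genes, such as Fam57b at Aldoa with 2 to 7 counts, and Gm49759 within Pkm with 3 to 7 counts, may share reads with these members.

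Identifiers were matched to GENCODE M21 (GRCm38; 16436 of 16449, 99.9%). Tests were run in edgeR 4.0.16 (R 4.3.3) with filterByExpr (minimum count 10, minimum total 15), TMM scaling and the quasi-likelihood F-test (glmQLFit, glmQLFTest), two-sided, with Benjamini-Hochberg adjustment over 5878 genes, on all 4 libraries with no covariate. The biological coefficient of variation was 10.5%. Each value of CPM used TMM-scaled totals of the tested genes. A floor of 3 counts equals 7.97 to 10.4 CPM. Copies were rows whose transcript aligned to that of a member (blastn 2.17.0, identity of at least 90% over at least 50% of the copy). Intervals are at 95%. DESeq2 1.42.0 and limma 3.58.1 were alternatives, with others listed in the closing section. The procedure was tested on simulated data.

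The 10 genes, lists and tests were chosen with earlier results of these data known. Named were the 10 genes, Tut1, the members of each list past the threshold, the 3 with the smallest p where fewer than 3 passed, isozymes, and any cell type marker called. Some genes that this rule names are not reported here. Sequences came from GENCODE and RefSeq.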

Additional observations from a re-analysis of the deposited data

How the results depend on the processing

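The count of called members was 0 in every alternative run: median-of-ratios scaling, total counts, no filter, 10 counts in 2 libraries, DESeq2, limma-voom, the bias-adjusted quasi-likelihood test, the replicate number as a block, each library left out, thinning to the smallest library, a trend on transcript length removed, and copies added. Over all genes, 121 calls became 12 with DESeq2, 16 after thinning and 3 to 108 with a library left out (3 without KO-labelled replicate 1, 35 without KO-labelled replicate 2, 75 without WT replicate 1). With total counts 81.4% of 129 calls were higher, against 67.8% of 121. The 2 calls in the other lists, Gapdh and Ldhb, became 0 with DESeq2 and after thinning (adjusted p = 0.0637 and 0.0872 in edgeR), and 0 to 2 with a library left out: 0 without either KO-labelled replicate, the same 2 without WT replicate 1, and without WT replicate 2 neither of them but 1 other gene, Hnrnpa2b1 (-0.42 on the log2 scale, edgeR, adjusted p = 0.0488). Of 145 values of member log2 fold changes under alternatives 137 kept their sign and 8 turned, for genes close to 0. Slc2a1 ranged from -0.0818 to 0.391 over the libraries left out (lowest without WT replicate 1), Tpi1 from -0.101 (without WT replicate 2) to 0.258, with -0.0720 without KO-labelled replicate 2, and Hk2 from -0.327 to 0.315 (without KO-labelled replicate 1). Hk2 also turned to 0.0550 with total counts, 0.0168 with DESeq2, 0.0102 with the block and 0.0268 after thinning. Thinning also moved Tpi1 from 0.0842 to 0.421, Slc2a1 from 0.142 to 0.0597, Pgk1 from -0.268 to -0.167 and Ldha from -0.260 to -0.124. The cause was not tested. The difference in the summed share of the 10 genes was 0.0169 percentage points and 0.0107 with copies added. Members' levels on total counts were 0.913 to 0.945 times those given, with 9 of 20 moved by more than 1 SD.

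The replicate numbers are shared by the groups, but nothing says that they pair libraries. Deviations of the same-numbered libraries from their group means had r = -0.06 across 5878 genes. With the number as a block 76 genes were called and 0 members. The adding of copies to Gapdh, Ldhb and Aldoc and the isozyme shares were chosen after seeing the data. Depth limits the genes with few counts most: the 95% interval of Pgk1 ran from 0.464-fold to 1.49-fold, and changes within such an interval could not be resolved.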
